A study of Mus musculus with 18 samples.

Results

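The non-invading fraction of MLg 2908 fibroblasts, a line grown from normal mouse lung, was compared between 72 and 96 hours after plating on a 3D collagen gel. Cells were plated on top of the gel in medium with fetal bovine serum. Those still lying on it at harvest made the non-invading fraction, and those that had entered it made the invading fraction. The 4 samples titled non-invading, 72h and the 5 titled non-invading, 96h were used, which are 9 of the 18 arrays of the series. The other 9 arrays hold the invading cells of the same times, in groups of 4 and 5. All groups are the same wild-type line, which is a continuous culture and not primary tissue. The treatment entry of every sample names TGFβ1 together with the assay, whereas the titles name no treatment and the study's figures mark the cells as not treated, so both readings are possible for all groups alike. By the study's account each array is an independent experiment. The comparison addresses what a further day on the collagen changes in the cells that had not entered it.

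Fibroblasts build and remodel the extracellular matrix of the lung. They secrete collagens, proteoglycans and matrix proteases, hold on to the matrix through integrins, and answer to growth factors such as TGFβ1. In dense cultures fibroblasts are known to leave the cell cycle. These statements are background.

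Transcripts were read with a whole-transcript array (Affymetrix Mouse Gene 1.0 ST), and the values are log2 signals per probe set. A gene stands for its brightest probe set among those with exactly 1 symbol, which gave 19938 genes. The 9 arrays had medians between 6.54 and 6.65, and arrays of 1 group correlated at 0.992 to 0.995 over all probe sets. A first principal component, with 47.4% of the variance, placed the 72-hour samples between -22.3 and -12.3 and the 96-hour samples between 7.3 and 19.2. A set of 6617 unnamed low-numbered probe sets, whose content the sources used here do not give, moved with time. Its median per array was 5.809 to 6.003 at 72 hours and 5.971 to 6.196 at 96 hours. In the invading arrays this median was 5.367 to 5.594, and whether it marks background is not known. No date or batch of the arrays is given in the sources used here, so time and any batch that goes with it cannot be told apart. Of 15 markers of fibroblasts, 12 lay above the level of those unnamed probe sets, Col1a2, Dcn, Pdgfra and Vim among them. Fap, Tcf21 and Thy1 did not.

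Of the 19938 genes, 5495 (27.6%) differed between the times at an adjusted p under 0.10 in limma. At 96 hours 3071 genes (15.4%) were higher and 2424 (12.2%) were lower. Most of these changes were small, with a median size of 0.30 on the log2 scale. With a ratio of group means above 1.5 as a further limit, 277 genes (1.39%) were higher and 115 (0.577%) lower, and with a ratio above 2 the numbers were 17 and 15. For 251 of the 277 and 93 of the 115 genes the ranges of the 2 groups did not overlap. These genes were chosen by the same values, so this describes the choice and supports nothing. Of all genes 20% had ranges that did not overlap. Without overlap 2431 of the 19938 genes were higher and 1555 lower at 96 hours. In bulk RNA a lower level per cell and fewer cells with the transcript give the same value. When the arrays were quantile normalized again, 2620 genes passed as higher and 3477 as lower, so that the majority changed side. All 392 genes past 1.5-fold kept their call there. When the median of the unnamed probe sets was added as a covariate, 1540 genes passed, among them 268 of the 392. Without the 72-hour samples 1 and 2, in which that median was lowest, 3788 passed, among them 333 of the 392. The part of the unnamed probe sets in the results below was not tested beyond these fits. Counts under both fits are given with the main gene groups.

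**Figure D1:**
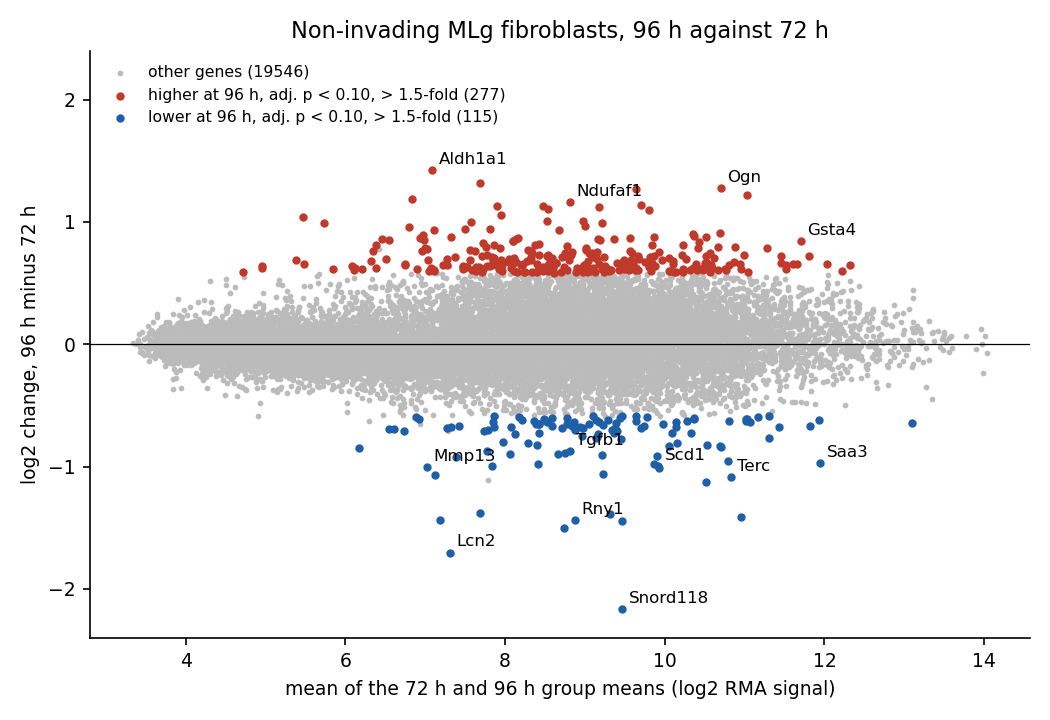
Change between 72 and 96 hours in non-invading cells (log2, vertical axis) against the mean of both group means (log2 signal, horizontal axis), with 1 point per gene. The 277 genes past the test and 1.5-fold higher are red, the 115 lower ones are blue, and changes reach from -2.16 for Snord118 to 1.42 for Aldh1a1.

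The largest increases without overlap between the groups were in genes of different roles. Aldh1a1, an enzyme that makes retinoic acid from retinal, had values of 6.11, 6.36, 6.51 and 6.53 at 72 hours and of 7.74, 7.74, 7.61, 7.62 and 8.28 at 96 hours. Every 96-hour value lay above every 72-hour value, with sample 5 apart at the top. The mean rose from 6.38 ± 0.20 (SD, n = 4) to 7.80 ± 0.28 (SD, n = 5), a log2 change of 1.42 (SE 0.15, adjusted p = 9.6e-06), or 2.68-fold. Fibin, a secreted protein of the embryonic fin bud and limb, was at 9.004, 9.07, 8.79 and 9.13 and then at 10.04, 10.46, 10.21, 10.11 and 10.54. The groups stood apart by far more than the spread within them, and the rise was 2.42-fold (adjusted p = 4.9e-06). Llph had the tightest values, from 10.38 to 10.46 at 72 hours and from 11.54 to 11.74 at 96 hours, a change of 1.22 with an SE of 0.054 (adjusted p = 1.1e-09).

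Ogn encodes osteoglycin, a small leucine-rich proteoglycan of the matrix. Its values spread widely, from 9.49 to 10.43 at 72 hours and from 10.96 to 11.80 at 96 hours, without overlap. It rose by 1.27 (SE 0.33, adjusted p = 0.011), but its adjusted p was 0.23 with the covariate and 0.15 without the 72-hour samples 1 and 2. Itga8, the α8 integrin chain that binds RGD ligands in the matrix, went from 8.61 ± 0.18 to 9.73 ± 0.31 (SD, n = 4 and 5), which was 2.18-fold (adjusted p = 0.00023). Ctsh, the lysosomal cysteine protease cathepsin H, rose 2.19-fold (SE 0.095 on the log2 scale, adjusted p = 2.3e-06). Pi15, a secreted protein of the CAP family, rose 2.14-fold (adjusted p = 5.2e-05).

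Among the 15 highest genes were also Ndufaf1 and Cmc1. Ndufaf1, which helps to build complex I, had values between 8.14 and 8.35 at 72 hours and between 9.32 and 9.56 at 96 hours (2.24-fold, adjusted p = 1.8e-07). Cmc1, which takes part in the assembly of cytochrome c oxidase, rose 2.20-fold (adjusted p = 5.9e-07). The others were Alyref2, Zfp935, Zfp40, Cdkn2aip, Tceal1 and Trim12a, with changes from 1.00 for Trim12a to 1.13 for Alyref2.

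**Figure D2:**
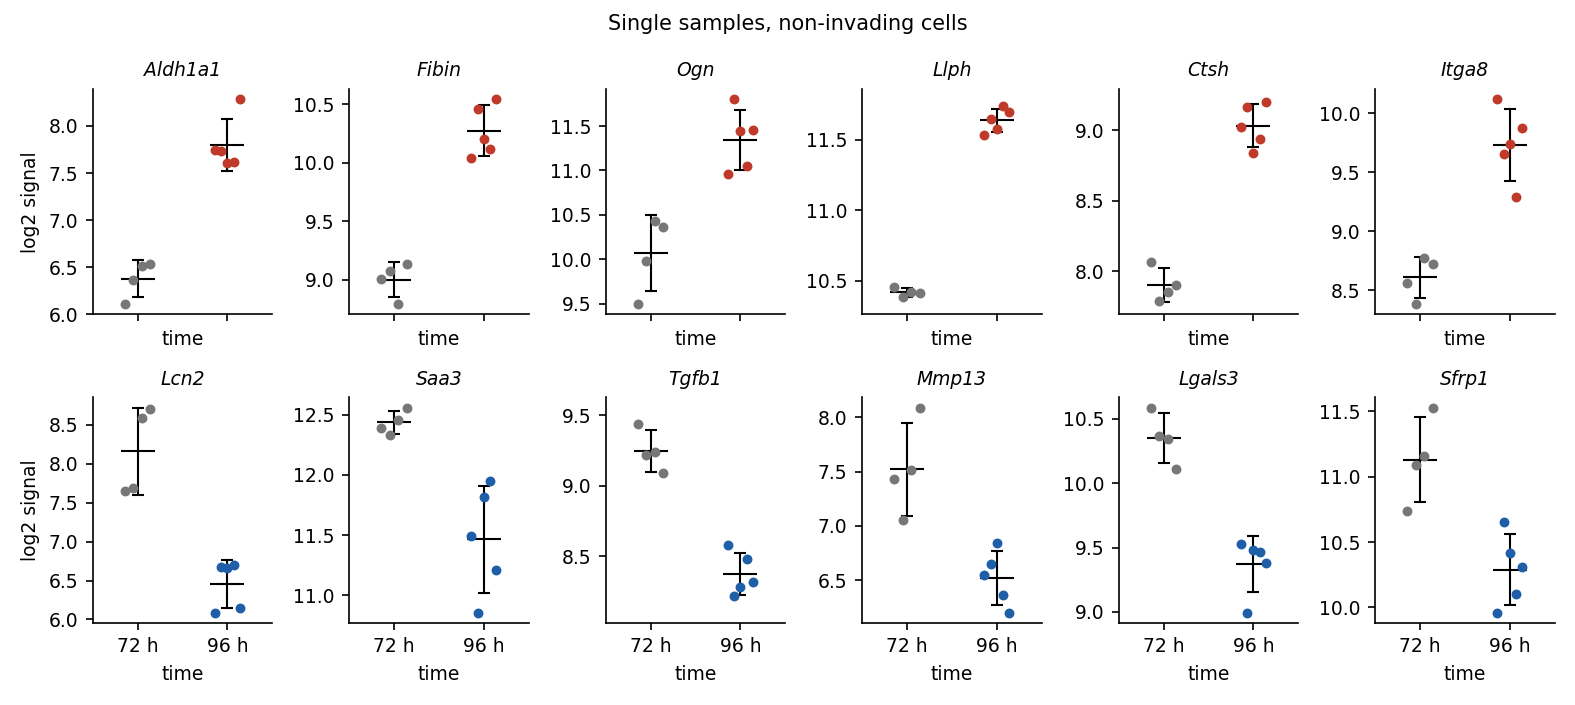
Log2 signal of 12 genes in each non-invading sample at 72 hours (grey, n = 4) and 96 hours (coloured, n = 5). Horizontal bars are means and error bars SD, each panel has its own axis of at least 1.6 log2 units, and in none of the panels do the groups overlap, as for Tgfb1 with 9.09 to 9.44 against 8.21 to 8.58.

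Several genes of the acute phase response, secreted proteins and regulators that inflammatory cytokines induce, were among the largest decreases. Lcn2, the siderophore-binding protein lipocalin 2, was at 7.65, 7.69, 8.59 and 8.70 at 72 hours and at 6.09, 6.68, 6.66, 6.70 and 6.15 at 96 hours. The 72-hour samples 1 and 2 were lower than samples 3 and 4, and all 4 lay above the 96-hour samples. Lcn2 fell by 1.70 on the log2 scale (SE 0.23, adjusted p = 8.5e-05), to 0.307 of its 72-hour mean. Hp, haptoglobin, had values from 7.398 to 8.02 and then from 5.98 to 7.07 and fell by 1.07 (SE 0.25, adjusted p = 0.0058). Serpina3n, an inhibitor of serine proteases, fell by 1.06 (adjusted p = 0.0005). Saa3, a serum amyloid A, was at 12.39, 12.33, 12.46 and 12.56 and then at 11.49, 10.86, 11.82, 11.95 and 11.21, so that the spread was wider at 96 hours. It fell by 0.97 (SE 0.17, adjusted p = 0.00089). Dynap, which was chosen after its values were seen, changed by -1.50 (SE 0.52, adjusted p = 0.052), with overlapping values of 8.48 to 10.27 and 7.198 to 9.05.

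Of 23 acute phase genes measured, 10 (43.5%) fell and 0 rose, where 12.2% and 15.4% of all genes did. The list was drawn up after these values were seen, so the count describes the choice and supports nothing. The median change was -0.19. Socs3, the feedback inhibitor of IL-6 family signalling, fell by 0.73 (adjusted p = 0.00046), and Cebpd, a transcription factor of the same response, by 0.58 (adjusted p = 0.0027). With the covariate 7 genes of the list passed, and without the 72-hour samples 1 and 2 it was 10. Of 33 chemokines and cytokines 11 (33.3%) fell and 0 rose. Il1rn, which encodes the antagonist of the IL-1 receptor, fell by 0.63 (adjusted p = 0.0073) and Cxcl10, a chemokine that interferons induce, by 0.67 (adjusted p = 0.0045). This count was 1 with the covariate and 5 without the 72-hour samples 1 and 2. Il6 itself was near the bottom of the scale, at 4.35 ± 0.15 and 4.09 ± 0.18 (SD, n = 4 and 5). Lgals3, the lectin galectin-3, fell by 0.98 (SE 0.12, adjusted p = 3.3e-05), from 10.35 ± 0.20 to 9.37 ± 0.22 (SD, n = 4 and 5), with sample 2 lowest at 96 hours.

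Of the genes followed by the study, Tgfb1, Mmp13, Sfrp1 and Cav1 were lower at 96 hours. Tgfb1, the ligand that activates fibroblasts, had values of 9.44, 9.21, 9.24 and 9.09 at 72 hours and 8.58, 8.21, 8.28, 8.48 and 8.32 at 96 hours. No 96-hour value came within the 72-hour range, and the fall was 0.87 on the log2 scale (SE 0.094, adjusted p = 1.3e-05), to 0.546 of the earlier mean. Mmp13, a collagenase that cleaves fibrillar collagen, was at 7.43, 7.05, 7.51 and 8.09 and then at 6.54, 6.64, 6.84, 6.37 and 6.2. It fell by 1.00 (SE 0.19, adjusted p = 0.0011). Sfrp1, a secreted antagonist of Wnt ligands, went from 11.13 ± 0.33 to 10.29 ± 0.27 (SD, n = 4 and 5; adjusted p = 0.0039). Cav1, the coat protein of caveolae, fell by 0.39 (adjusted p = 0.010), with values of 11.97 to 12.10 and 11.37 to 11.94, and its adjusted p was 0.38 with the covariate. For Mmp3, stromelysin 1, the groups overlapped, at 6.61 to 7.38 and 6.09 to 7.06, and the change of -0.51 did not pass (adjusted p = 0.12).

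The genes for making cholesterol and fatty acids fell together. These enzymes turn acetyl-CoA into sterols through mevalonate and squalene, or into long-chain fatty acids, and the transcription factors SREBP-1 and SREBP-2 (Srebf1 and Srebf2) are known to control them. Of 29 genes measured 24 (82.8%) fell and 0 rose, and 22 had groups without overlap, all lower at 96 hours, as had 1555 of all 19938 genes. The median change was -0.46, against -0.017 over all genes, and 7 fell by more than 1.5-fold. The count was 17 both with the covariate and without the 72-hour samples 1 and 2, and was between 19 and 24 when any single non-invading sample was left out.

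The falls ran from the first steps of the pathway to its last. Hmgcs1, which makes HMG-CoA, was at 10.83, 10.68, 10.95 and 11.13 and then at 10.34, 10.42, 10.36, 10.53 and 10.01. The groups did not overlap, and it fell by 0.57 with an adjusted p of 0.075. Mvk and Mvd, the kinase and the decarboxylase of mevalonate, fell by 0.65 (adjusted p = 0.00094) and 0.82 (adjusted p = 6e-05). Mvd had values from 8.71 to 8.92 at 72 hours and from 7.84 to 8.18 at 96 hours. Fdft1, which makes squalene, Lss, which closes the sterol ring, and Dhcr7, which makes cholesterol in the last step, fell by 0.55, 0.73 and 0.61. Tm7sf2, a sterol reductase that was not on the list, fell by 0.98 (SE 0.15, adjusted p = 0.00019).

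On the fatty acid side Fasn, the fatty acid synthase, fell from 11.33 ± 0.14 to 10.70 ± 0.14 (SD, n = 4 and 5; adjusted p = 0.00011). Scd1, the desaturase that makes oleic acid, had values of 10.51, 10.18, 10.48 and 10.51 and then of 9.64, 9.41, 9.44, 9.70 and 8.93. Sample 2 was apart at 72 hours and still above all 96-hour samples. Scd1 fell by 1.00 (SE 0.16, adjusted p = 0.00027). Srebf2 fell by 0.52 (adjusted p = 0.00012) and Srebf1 by 0.27 (adjusted p = 0.0015), with 9.04 to 9.22 against 8.86 to 8.93 for the latter. Idi1, Msmo1, Stard4, Sc5d and Pmvk had changes from -0.46 to -0.15 that did not pass. Of 23 genes for lipid storage 5 fell and 0 rose, among them Pdk4, a kinase that restrains the use of glucose (-0.64, adjusted p = 0.00034), and Pnpla2, the lipase that opens lipid droplets (-0.38, adjusted p = 0.00059).

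**Figure D3:**
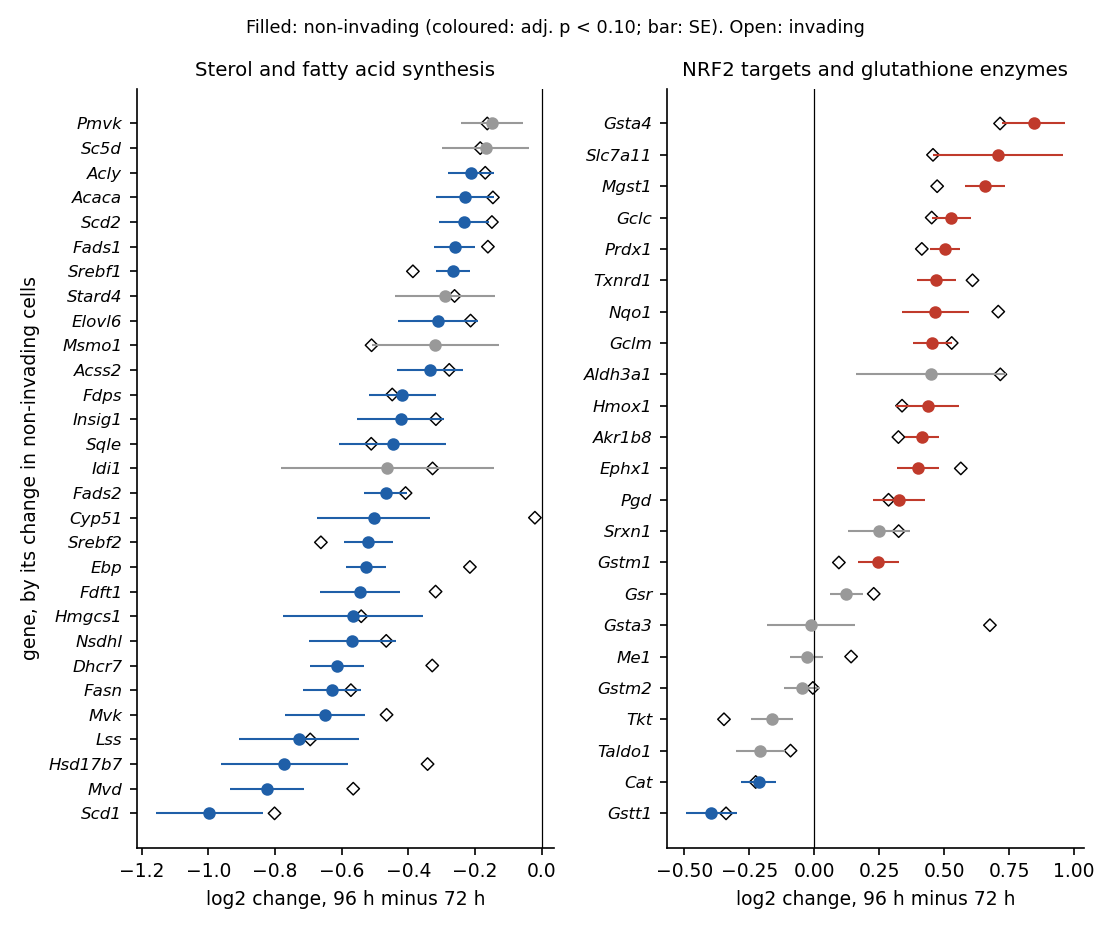
Log2 change between 72 and 96 hours of each measured gene of the sterol and fatty acid list (left) and of the NRF2 list (right). Filled points are non-invading cells with their SE, coloured where the adjusted p is under 0.10 and grey elsewhere, and open diamonds are invading cells. On the left 24 of 29 genes passed as lower, and on the right 13 of 23 passed as higher.

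Promoter sequences from RefSeq (GRCm38.p6) were searched on both strands in the 250 bases before each start for the sterol response element TCACNCCAC and the CCAAT box. The motifs were counted separately, so hits may overlap. Of the 29 genes 22 had an entry. The sterol element was found for 1 of them, where 1.2% of the genes measured hold it, and a CCAAT box for 18 (81.8%), where 38.8% hold it. The share with a CCAAT box was also high among NRF2 targets (66.7%) and among genes of mitosis (76.9%). These matches are descriptions of sequence. The match of Hmgcs1 is shown because the element is known from this gene, with the element in capitals, at chr13:119690189-119690248 on the plus strand, 129 to 137 bases before the start:
Hmgcs1: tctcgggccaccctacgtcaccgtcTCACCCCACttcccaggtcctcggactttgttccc

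Genes of the antioxidant and glutathione response rose. The transcription factor NRF2 is known to control them when cells meet electrophiles or oxidants. Of 23 measured, 13 (56.5%) rose and 2 (8.7%) fell, with a median change of 0.40. Without overlap between the groups 10 of the 23 were higher, as were 2431 of all 19938 genes. The count of higher genes was 11 with the covariate, 10 without the 72-hour samples 1 and 2, and 12 to 15 without any single sample. Gsta4, a glutathione transferase for lipid aldehydes, was at 11.35, 11.25, 11.36 and 11.19 and then at 11.96, 11.96, 12.14, 12.35 and 12.25. It rose by 0.84 (SE 0.12, adjusted p = 0.00017), or 1.79-fold. Mgst1, a glutathione transferase of membranes, had values from 11.23 to 11.38 and from 11.82 to 12.09 and rose 1.58-fold (adjusted p = 2.7e-05).

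Both subunits of the enzyme that sets the rate of glutathione synthesis rose, Gclc by 0.53 (adjusted p = 0.00014) and Gclm by 0.46 (adjusted p = 0.00039). Prdx1, a peroxiredoxin, was between 11.81 and 12.02 at 72 hours and between 12.38 and 12.42 at 96 hours, a rise of 0.50 (adjusted p = 2e-05). Txnrd1, thioredoxin reductase, rose by 0.47 (adjusted p = 0.00037). Nqo1, a quinone reductase, and Hmox1, heme oxygenase 1, rose by 0.47 (adjusted p = 0.016) and 0.44 (adjusted p = 0.015) with overlapping groups. Gstt1, another glutathione transferase, and Cat, catalase, fell by 0.40 and 0.21.

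The core TGACNNNGC of the antioxidant response element, which NRF2 is known to bind, was searched in the same way. It was found for 5 of 18 genes of the list with a promoter entry (27.8%), where 12.5% of the genes measured hold it. For 4 of the 5 (Gclm, Mgst1, Prdx1, Txnrd1) the gene had risen, and for Gsta3 the change was -0.012 (adjusted p = 0.97). The stretches of the 4 genes that rose are shown with the core in capitals, and all read the core on the strand opposite to the gene. They lie at chr3:122245398-122245457, chr6:138140446-138140505, chr4:116685441-116685500 and chr10:82859089-82859148 in the order shown, all on the plus strand:
Gclm: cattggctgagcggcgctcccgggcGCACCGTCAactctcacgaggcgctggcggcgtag
Mgst1: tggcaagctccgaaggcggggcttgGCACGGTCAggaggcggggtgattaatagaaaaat
Prdx1: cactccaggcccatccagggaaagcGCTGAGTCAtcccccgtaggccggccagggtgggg
Txnrd1: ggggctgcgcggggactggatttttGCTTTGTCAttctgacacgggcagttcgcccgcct

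Many small nucleolar RNAs were lower at 96 hours. These RNAs guide the modification and cutting of ribosomal RNA, the box C/D family in methylation and the box H/ACA family in pseudouridylation. Whether the probe sets read the mature RNA or its host transcript is not given in the sources used here. Snord118, the U8 RNA needed to mature the large ribosomal subunit, was at 10.75, 10.72, 10.42 and 10.31 and then at 8.40, 8.61, 8.24, 8.40 and 8.27. The gap between the groups was far wider than either group, and Snord118 fell by 2.16 (SE 0.29, adjusted p = 9e-05), to 0.223 of the earlier mean. Of 31 box C/D RNAs 13 (41.9%) fell and 0 rose, with a median change of -0.27, and of 20 box H/ACA RNAs 12 fell and 0 rose, with a median of -0.49. Snora74a and Snora62 fell by 1.44 each (adjusted p = 2.7e-06 and 3.7e-06). With the covariate 11 and 8 passed as lower, and without the 72-hour samples 1 and 2 it was 8 and 7. Both families were chosen after these values were seen, so their counts are a description.

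Other structural RNAs fell as well. Rny1, a Y RNA of the Ro particle, was between 9.45 and 9.70 at 72 hours and between 7.995 and 8.40 at 96 hours, a fall of 1.44 (SE 0.21, adjusted p = 0.00017). Terc, the template RNA of telomerase, had values of 11.59, 11.49, 11.30 and 11.09 and then of 10.73, 9.96, 10.26, 10.49 and 9.99. It fell by 1.08 (SE 0.14, adjusted p = 7e-05), without overlap. Snhg17, a host transcript of small nucleolar RNAs, fell by 1.01 (adjusted p = 7.1e-05), and its adjusted p was 0.13 when the median of its probe sets was used.

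Loci of microRNA precursors moved in both directions. A microRNA pairs with its targets mainly through bases 2 to 8, the seed, and loci with the same seed are counted as 1 family. These probe sets read the precursor locus and not the mature arm. Of 296 loci 31 (10.5%) rose and 21 (7.09%) fell, below the shares of all genes, and 192 of the 296 did not exceed the level of the unnamed probe sets. With a ratio above 1.5 as a limit 12 rose and 1 fell (Mir145a, -0.61, with overlap). Mature sequences from RefSeq (GRCm38.p6) were at hand for those 12. To show what these loci encode, the main arms of 10 of them, which have 4 seeds, are printed here with the seed in capitals. The loci were chosen by their change, and some are neighbours in the genome, so the seeds they have in common are a description.

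The seed ACAUUCA is shared by 3 of these loci, Mir181b-1, Mir181a-2 and Mir181b-2:
mmu-miR-181a-5p: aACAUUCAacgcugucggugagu
mmu-miR-181b-5p: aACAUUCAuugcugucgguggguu
The seed AGCAGCA is shared by 3, Mir15b, Mir15a and Mir16-2:
mmu-miR-15b-5p: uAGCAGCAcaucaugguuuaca
mmu-miR-15a-5p: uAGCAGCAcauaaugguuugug
mmu-miR-16-5p: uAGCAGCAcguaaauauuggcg
The seed ACCCGUA is shared by 2, Mir99a and Mir100:
mmu-miR-99a-5p: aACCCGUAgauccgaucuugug
mmu-miR-100-5p: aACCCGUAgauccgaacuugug
The seed GAGGUAG is shared by 2, Mirlet7c-1 and Mirlet7d:
mmu-let-7c-5p: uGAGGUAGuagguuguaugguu
mmu-let-7d-5p: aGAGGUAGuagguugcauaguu

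Among all measured loci with the seed ACAUUCA 4 of 6 rose, with AGCAGCA 3 of 6, with ACCCGUA 2 of 3, where 1 fell, and with GAGGUAG 3 of 9. These counts include the loci chosen above.

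Mir181a-2, with mature miR-181a-5p at chr2:38852741-38852763 on the plus strand, was at 6.17, 6.08, 6.49 and 6.21 and then at 7.32, 7.67, 7.61, 7.09 and 7.43. It rose by 1.19 (SE 0.16, adjusted p = 9.9e-05) without overlap. Mir181b-2 lies about 1 kb from it on chromosome 2 and rose by 0.94 (adjusted p = 0.0088), from 7.34 ± 0.42 to 8.28 ± 0.34 (SD, n = 4 and 5). Mir181b-1 on chromosome 1 had the largest estimate, 1.32 (adjusted p = 0.0055), but its 96-hour sample 4 at 7.46 lay inside the 72-hour range of 6.58 to 7.53. Mir15b and Mir16-2, neighbours on chromosome 3, rose by 0.99 (adjusted p = 0.0057) and 0.64 (adjusted p = 0.013), and Mir99a and Mir100, on chromosomes 16 and 9, by 0.89 and 0.69. Only 3 loci passed as higher with the covariate and 11 without the 72-hour samples 1 and 2.

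Histone genes of the clusters, which are transcribed in S phase and whose messages are made without a poly(A) tail, were lower at 96 hours. Of 26 measured 14 (53.8%) fell and 0 rose, with a median change of -0.31. H4c3 had values of 8.64, 8.41, 8.25 and 8.02 and then of 7.31, 7.06, 7.34, 7.74 and 7.22 and fell by 0.99 (SE 0.15, adjusted p = 0.00024). H2bc18 fell by 0.90 (adjusted p = 8.6e-05). In both genes the 96-hour sample 4 was the highest of its group. With the covariate 4 passed, and without the 72-hour samples 1 and 2 it was 8. The histone family was chosen after these values were seen, so its counts are a description. Reads of near-identical histone copies cannot be told apart by all probes.

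Genes of DNA replication and mitosis passed more often as lower than as higher in the main fit. This did not hold for the calls with the covariate or without the 72-hour samples 1 and 2. Of 32 replication genes 8 fell and 3 rose. Tk1, thymidine kinase 1, was at 9.52, 9.495, 9.22 and 9.11 and then at 8.31, 8.68, 8.49, 8.93 and 8.53, and fell by 0.75 (SE 0.12, adjusted p = 0.00037) without overlap. Of 33 mitosis genes 8 (24.2%) fell and 1 rose (Cenpf, 0.43), with a median of -0.14. Plk1, a kinase that drives mitosis, fell by 0.55 (adjusted p = 0.017), and Foxm1, a transcription factor of the same programme, by 0.55 (adjusted p = 0.0041), both with overlap. No gene of the mitosis list had groups that did not overlap. With the covariate, and also without the 72-hour samples 1 and 2, the count of lower mitosis genes was 0, and for replication it was 1. The count of higher replication genes was 2 and 4 under these fits, so more passed as higher than as lower. That of higher mitosis genes was 0. The calls of Plk1, Foxm1 and the replication gene Mcm5 ended under both fits, but their estimates stayed negative. With the covariate they were -0.21, -0.35 and -0.14, and without the 72-hour samples 1 and 2 they were -0.30, -0.34 and -0.33. Leaving out single samples gave 4 (without the 72-hour sample 1 or 2) to 14 (without the 96-hour sample 4) lower replication genes and 6 to 13 lower mitosis genes. Of 24 genes of G1 and arrest 7 (29.2%) rose and 1 fell, and 2 rose with the covariate and 3 without the 72-hour samples 1 and 2. Cdkn2c, the kinase inhibitor p18, rose by 0.43 (adjusted p = 0.0023), Gas2, a gene induced on growth arrest, by 0.57 (adjusted p = 0.00042) and Gadd45a, a stress gene, by 0.50 (adjusted p = 0.0027, with the covariate 0.26). Of 29 immediate early genes 7 (24.1%) fell and 1 rose, with Myc at -0.58 (adjusted p = 0.026), and the count of lower genes was 1 under both fits named before.

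Matrix genes moved in both directions, where 15.4% of all genes rose and 12.2% fell. Of 26 collagen genes 6 (23.1%) fell and 3 (11.5%) rose, but with the covariate 1 fell and 0 rose, and without the 72-hour samples 1 and 2 it was 2 each. Col1a1 fell by 0.28 (SE 0.071, adjusted p = 0.009), with 12.41 to 12.53 against 12.10 to 12.33, while Col1a2 was at 12.48 ± 0.03 and 12.38 ± 0.07 (SD, n = 4 and 5; adjusted p = 0.25). Of 18 genes of elastic fibres 4 (22.2%) fell and 1 (5.56%) rose, and with the covariate 1 each. Fbln2, the matrix protein fibulin 2, fell by 0.62 (adjusted p = 0.00026) and Mfap4, a protein that binds elastin and collagen, rose by 0.72 (adjusted p = 0.0029). Of 28 adhesive and matricellular genes 4 (14.3%) fell and 2 (7.14%) rose, with 1 each under either fit. Lama2, the laminin α2 chain, was at 9.74, 9.75, 9.79 and 10.04 and then at 10.45, 10.88, 10.75, 10.23 and 10.88 and rose by 0.81 (adjusted p = 0.00051). Ccn5, a matricellular protein of the CCN family, had 8.84 to 8.87 against 8.01 to 8.30 and fell by 0.64 (adjusted p = 0.00022). Of 19 proteoglycans 2 (10.5%) rose, Ogn among them, and 2 (10.5%) fell, below the shares of all genes.

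Proteases and adhesion receptors were mixed in the same way, where 15.4% of all genes rose and 12.2% fell. Of 24 metalloproteases 5 (20.8%) fell and 6 (25%) rose, with 3 and 2 under either fit. Besides Mmp13, Adam12, a membrane protease of activated fibroblasts, fell by 0.65 (adjusted p = 0.00034). Adamts1, a protease that cuts proteoglycans, rose by 0.79 (SE 0.095, adjusted p = 3e-05), with 10.38 to 10.56 against 11.03 to 11.46. Of 21 protease inhibitors, plasmin genes and cathepsins 3 (14.3%) rose and 1 (4.76%) fell, below the shares of all genes. Ctsl, the lysosomal protease cathepsin L, was at 0.48 (adjusted p = 9.3e-05). Of 12 hyaluronan genes 1 (8.33%) rose and 2 (16.7%) fell. Cemip, which degrades hyaluronan, rose by 0.55 (adjusted p = 0.0075). Has2, which makes it, and its receptor Cd44 fell by 0.69 (adjusted p = 0.021) and 0.34. All 3 of these calls ended both with the covariate and without the 72-hour samples 1 and 2, but the estimates kept their signs. They were 0.31 and 0.375 for Cemip, -0.77 and -0.59 for Has2 and -0.18 and -0.20 for Cd44. Of 17 integrin genes Itga8 (5.88%) rose and 4 (23.5%) fell. The count of lower integrin genes was 1 with the covariate and 2 without the 72-hour samples 1 and 2. Itga3, a chain for laminin receptors, fell by 0.72 (adjusted p = 0.00063) and Itga5, the fibronectin receptor chain, by 0.48 (adjusted p = 0.0011), both without overlap, and the call of Itga5 ended with the covariate (adjusted p = 0.10). Of 24 contractile genes 6 (25%) rose and 5 (20.8%) fell, but 0 rose and 1 fell with the covariate. Acta2, the smooth muscle actin that marks myofibroblasts, was at 13.11 ± 0.06 and 13.13 ± 0.07 (SD, n = 4 and 5; adjusted p = 0.90). Of 10 caveolar genes Cav1 and Cav2 (20%) fell and Cavin2 (10%) rose by 0.65 (adjusted p = 0.0082). All 3 calls ended with the covariate, and those of Cavin2 and Cav2 also without the 72-hour samples 1 and 2 (adjusted p = 0.10 and 0.19). With the covariate the estimates were 0.32 for Cavin2, -0.24 for Cav1 and -0.38 for Cav2. That of Cav2 was -0.28 in the main fit. The call of Cav2 ended with the replicate block as well (0.10), and without the 72-hour sample 1 or 3 or the 96-hour sample 1 (0.11 to 0.13).

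Signalling lists held calls in both directions, with 7.41% to 16.7% of a list higher and 8% to 19.4% lower. Most of these calls ended with the covariate, under which 0 growth factor genes rose and 2 fell. Of 25 genes of the TGFβ pathway 4 (16%) rose and 2 (8%) fell, where 15.4% and 12.2% of all genes did. Apart from Tgfb1 no member passed 1.5-fold. Nrep, a neuronal regeneration protein, rose by 0.50 (adjusted p = 0.010, with the covariate 0.33). Of 27 genes of BMP and ID signalling 2 (7.41%) rose and 5 (18.5%) fell. Of 31 Wnt genes 3 rose and 6 (19.4%) fell, with Lef1, a nuclear partner of β-catenin, at -0.50 (adjusted p = 0.027) beside Sfrp1, and Dkk2, another Wnt antagonist, at 0.40 (adjusted p = 0.0021). The call of Lef1 ended with the covariate (adjusted p = 0.45) and without the 72-hour samples 1 and 2 (0.14). Of 36 growth factor genes 6 rose and 7 (19.4%) fell. Angpt1, a ligand of the endothelial receptor Tie2, rose by 0.62 (adjusted p = 0.0044, with the covariate 0.45), and Fgf10, a ligand for lung epithelium, fell by 0.56 (adjusted p = 0.0055). Igfbp7, a binding protein of insulin-like growth factors, fell by 0.63 (adjusted p = 0.025), with sample 1 far below at 9.74. Of 25 YAP targets 2 (8%) rose and 4 (16%) fell.

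Among gene families, many zinc finger genes and protocadherins of the beta cluster were higher at 96 hours. The families, named by symbol, were chosen after these values were seen, so their counts describe the choice and support nothing. Genes named Zfp mostly encode proteins with C2H2 zinc fingers, many of which repress transcription. Of 341 measured 145 (42.5%) rose and 34 (9.97%) fell, with a median change of 0.16. For 99 of the 341 the 96-hour values were all higher, as for 2431 of all 19938 genes. The count of 145 was 33 with the covariate and 72 without the 72-hour samples 1 and 2. Of 22 beta protocadherins, adhesion proteins encoded by neighbouring genes with 1 exon each, 12 (54.5%) rose and 1 fell. Pcdhb9 was at 6.32, 6.38, 6.09 and 6.50 and then at 7.32, 7.56, 7.17, 6.82 and 7.55, a rise of 0.96 (adjusted p = 0.0017), and Pcdhb16 rose by 0.70 (adjusted p = 0.0028). The count of higher genes was 1 with the covariate and 9 without the 72-hour samples 1 and 2. Of 1027 olfactory receptors, which fibroblasts are not known to use, 22 (2.14%) rose and 22 fell, and 978 did not exceed the level of the unnamed probe sets.

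Genes for protein folding, breakdown and energy were more often higher than lower. Of 39 proteasome subunits 18 (46.2%) rose and 4 (10.3%) fell. Psma2, of the core particle, was at 10.40, 10.24, 10.03 and 10.12 and then at 10.92, 11.05, 10.70, 11.06 and 10.98 and rose by 0.74 (adjusted p = 1.8e-05). Psmc6, of the regulatory cap, rose by 0.61 (adjusted p = 9.8e-06). Among those that fell was Psmb10, an interferon-induced subunit (-0.51). The count of higher subunits was 15 with the covariate and 18 without the 72-hour samples 1 and 2. This family was chosen after these values were seen, so its counts are a description. Of 17 heat shock genes 7 (41.2%) rose and 1 fell, with Hsf2, a heat shock factor, at 0.60 (adjusted p = 6.1e-05). Of 23 chaperones of the endoplasmic reticulum 7 (30.4%) rose and 2 fell, with Dnajb11 at 0.49 (adjusted p = 0.00015). With the covariate 2 rose in either list, and without the 72-hour samples 1 and 2 it was 6.

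Of 77 mitochondrial ribosomal proteins 27 (35.1%) rose and 13 (16.9%) fell, and the count of higher genes was 20 with the covariate and 34 without the 72-hour samples 1 and 2. Of 29 respiratory chain genes 11 (37.9%) rose and 7 (24.1%) fell. Sdhd, a membrane anchor of complex II, rose by 0.62 (SE 0.068, adjusted p = 1.4e-05), while Cyc1, cytochrome c1 of complex III, fell by 0.58 (adjusted p = 0.00023), so that subunits of 1 chain went apart. The count of higher genes was 9 with the covariate and 12 without the 72-hour samples 1 and 2. Of 31 genes of ribosome biogenesis 12 (38.7%) rose and 5 (16.1%) fell, with Wdr12, a factor for the large subunit, at 0.49 (adjusted p = 0.00023), and the count of higher genes was 5 with the covariate and 13 without the 72-hour samples 1 and 2. Of 57 ribosomal protein genes 9 (15.8%) rose and 14 (24.6%) fell. With the covariate 7 rose and 2 fell, and without the 72-hour samples 1 and 2 it was 6 and 7. Both families of ribosomal proteins were chosen after these values were seen, so their counts are a description. The plot of gene lists shows these shares beside those of all genes.

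**Figure D4:**
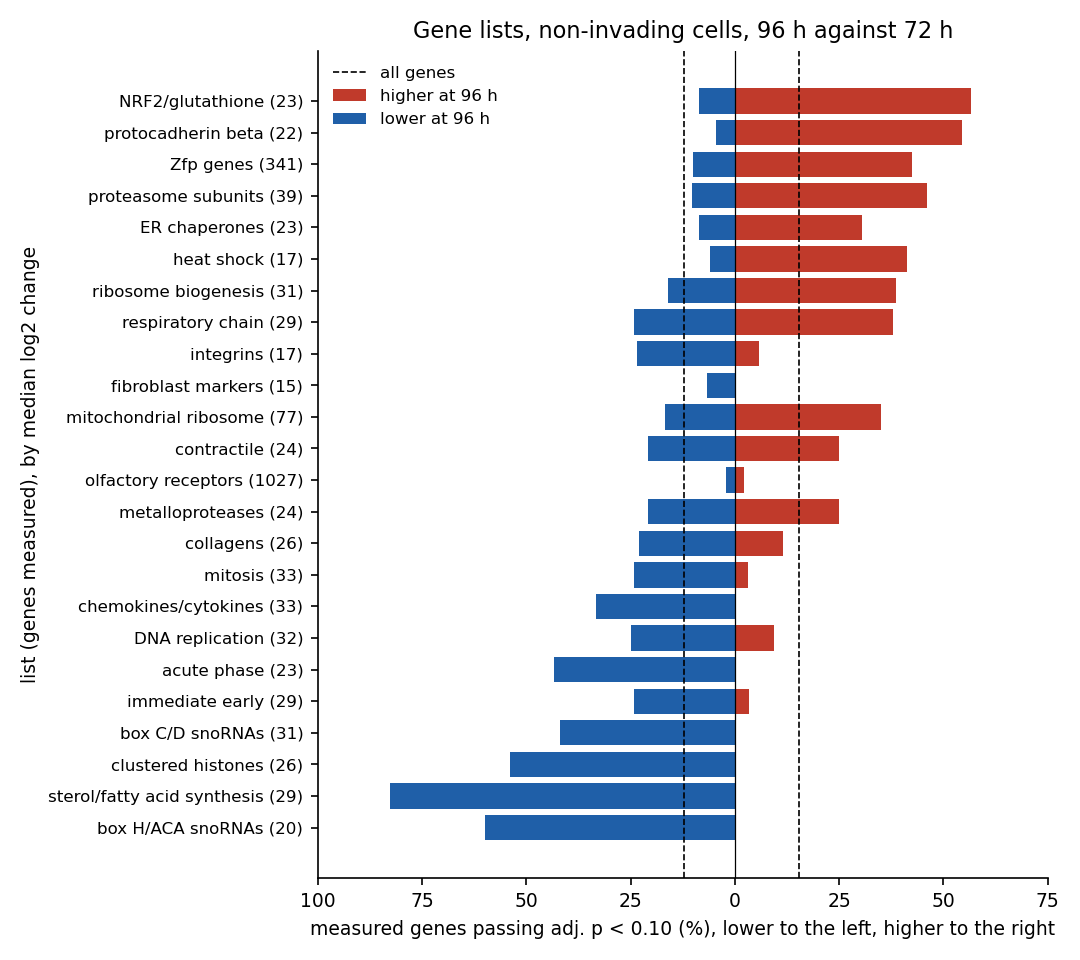
Share of the measured genes of 24 lists that passed an adjusted p under 0.10 as higher (red, to the right) or lower (blue, to the left) at 96 hours in non-invading cells, with the number measured in brackets and lists ordered by their median log2 change. Dashed lines mark all genes, 15.4% higher and 12.2% lower, and the sterol list reaches 82.8% lower. The acute phase list and the families named by symbol were drawn up after these values were seen.

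Markers of other cell types mostly did not exceed the level of the unnamed probe sets, except those of mesothelial cells. Of 13 macrophage markers 9 did not exceed the level of the unnamed probe sets, Csf1r, Ptprc and Adgre1 among them, and 4 fell and 0 rose. Cd14 and Cd68 fell by 0.54 (adjusted p = 0.0075) and 0.53 (adjusted p = 0.0083), and with the covariate both calls ended (adjusted p = 0.27 and 0.33). The count of lower macrophage markers was 0 with it and 2 without the 72-hour samples 1 and 2. The other 2, Marco and Adgre1, changed by -0.30 and -0.18, and both calls ended when a single sample was left out (for Adgre1 the 72-hour sample 2, adjusted p = 0.15). The summed linear signal of the macrophage list was 967 to 981 at 72 hours and 726 to 875 at 96 hours. It moved the same way as the acute phase and chemokine genes above, and its part in them was not tested. Of 11 endothelial and 13 epithelial markers none passed, and 7 of each did not exceed that level. Their summed signals were 660 to 724 and 869 to 986 at 72 hours and 631 to 688 and 843 to 941 at 96 hours. Of 9 mesothelial markers only 3 did not exceed that level. Lrrn4 rose (0.47, adjusted p = 0.0069, with the covariate 0.24), and Msln was well above that level, at 10.56 and 10.46. Of 8 lymphocyte markers 7 did not exceed that level, and only Cd3g passed, by -0.18.

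The change over the same day was set against that in the invading cells, which are separate arrays. The study separated both fractions from cells plated together, and whether a replicate number marks the same culture is not stated. Samples of 1 number and time correlated across the fractions at -0.07 to 0.17 after removal of group means. In the invading fraction 3622 genes (18.2%) were higher and 3320 (16.7%) lower at 96 hours. Of the 277 genes past 1.5-fold higher in non-invading cells, 257 also passed as higher in invading cells and 0 as lower, and of the 115 lower ones 87 passed as lower and 0 as higher. With 1.5-fold in both fractions, 183 genes were higher, which is 66.1% of the non-invading and 34.7% of the invading genes, and 40 were lower, which is 34.8% and 51.9%. Over all genes the changes of the fractions correlated at 0.80, a value across genes, which are not independent, and the fractions may share cultures.

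The difference between the changes passed the test for 3 genes (0.015%), all of which rose in both fractions and rose less in non-invading cells. At an unadjusted p under 0.05 there were 1623 genes. Gtpbp4, a GTPase of ribosome biogenesis, was at 9.93, 9.78, 9.65 and 9.80 and then at 9.996, 10.13, 10.05, 10.34 and 10.14 in non-invading cells. In invading cells it went from 9.28 to 9.38 to between 10.16 and 10.34. Its change was 0.34 and 0.90, a difference of -0.57 (SE 0.097, adjusted p = 0.084). Sarnp, an RNA-binding protein of mRNA export, changed by 0.37 and 0.96, a difference of -0.59 (SE 0.11, adjusted p = 0.084), and Pdcl, a phosducin-like co-chaperone, by 0.34 and 0.79, a difference of -0.45 (SE 0.084, adjusted p = 0.094). With the number as a replicate block shared by both fractions at each time 0 genes passed (adjusted p = 0.19, 0.27 and 0.30 for Gtpbp4, Sarnp and Pdcl), with 1686 at an unadjusted p under 0.05. The 3 calls also depended on the fit and on single samples, as the count was between 0 and 16 when any of the 18 samples was left out.

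For other genes the changes in the fractions had different sizes, but the difference did not pass. Mmp13 changed by -1.003 in non-invading and 0.04 in invading cells, where it was between 9.32 and 10.17 at 96 hours (difference -1.04, SE 0.26, adjusted p = 0.27). Lgals3 changed by -0.98 and -0.24 (difference adjusted p = 0.20) and Tgfb1 by -0.87 and -0.42, a fall that passed in both (difference adjusted p = 0.32). Mitosis genes had a median of -0.14 in non-invading cells, with 8 lower and 1 higher, and of 0.28 in invading cells, with 1 lower and 17 higher, and no gene of the list passed the test of the difference (lowest adjusted p = 0.27). Sterol genes had medians of -0.46 and -0.33, with 24 and 20 lower and 0 higher in either fraction. NRF2 genes had medians of 0.40 and 0.34, and box H/ACA RNAs of -0.49 and -0.69.

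**Figure D5:**
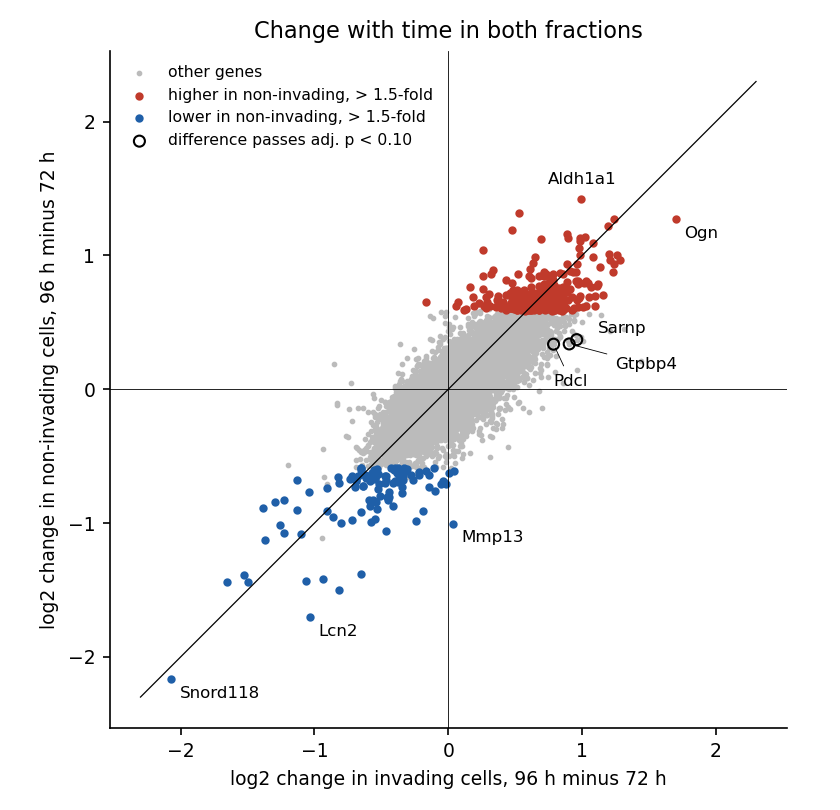
Log2 change between 72 and 96 hours in non-invading cells (vertical axis) against that in invading cells (horizontal axis), 1 point per gene, with the line of equal change. Genes past 1.5-fold in non-invading cells are red or blue, and the 3 genes whose changes differ at an adjusted p under 0.10 are circled at about 0.34 to 0.37 against 0.79 to 0.96.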

How the data were processed

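Array signals of 18 samples were used as the authors deposited them, on a log2 scale. Per the labels and the study's methods the authors had corrected the background, normalized the arrays by sketch-quantile and summarized probe sets by RMA in Affymetrix Expression Console (version 1.2 in the submitters' processing notes). No further transformation was made. The table holds 35556 probe sets, of which 21789 have 1 gene symbol in the array annotation, 1621 have several and 12146 none. The arrays are RNA of separate experiments, and their number limits the precision.

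Group means of all 18 samples were fitted with limma 3.58.1 in R 4.3.3, and 96 hours was compared with 72 hours within each fraction, with Benjamini-Hochberg adjustment over all probe sets and a threshold of 0.10, as in the study. Errors of changes are standard errors of that fit. On simulated data for the non-invading comparison it recovered 92 of 100 probe sets changed 1.5-fold and 99 of 100 changed 2-fold, and called 26 unchanged ones. The simulated noise was independent between probe sets, without a shift shared by an array. In the real arrays the median of the unnamed probe sets moved, so these numbers do not give the error rate there. The members and gene lists were chosen with earlier results of these data known, and the families named by symbol and the acute phase list after these values were seen. Named genes were the 15 highest and 15 lowest past the test without overlap, leaving out predicted genes and small RNAs (1 higher, 12 lower, of which some are given with their group), up to 4 members per list, the genes followed by the study and those past the difference test. Further genes, such as microRNA loci and promoters shown, were chosen after their values were seen. Genes with several symbols were not analysed here.

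Replicate numbers were not taken as pairs: samples of 1 number at 72 and 96 hours correlated at -0.28 to 0.25 after removal of group means. Alternatives were quantile normalization again, centring on medians, a signal filter of 100, probe sets with 1 symbol, an intensity trend, only the groups compared, a threshold of 0.05, the median probe set per gene, the replicate block and leaving out each sample. Fits with the replicate block shared by both fractions at each time, with the unnamed median as covariate, without 2 samples and without the unnamed probe sets were added after seeing the data.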

Additional observations from a re-analysis of the deposited data

Results flagged for a closer look

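In 22 of 316 groups of 4 or 5 samples of the named genes (6.96%) a single sample lay apart from the rest of its group by more than Dixon's 95% limit, where chance gives about 1 in 20. At 96 hours sample 4 was apart for Birc5 (8.98), Cdc20 (8.81), Fosl1 (9.75), Gchfr (7.80) and Plk1 (10.43), each the highest of its group, and for Col4a1 (8.89), the lowest. Sample 1 was highest for Creld2 (11.15), Ctsd (12.45) and Gpc1 (9.56), and lowest for Igfbp7 (9.74) and Ptges3 (12.48). Sample 5 was highest for Aldh1a1 (8.28) and Zfp40 (8.90), sample 2 lowest for Ifit2 (7.97) and Lgals3 (8.995), and sample 3 lowest for Mmp10 (5.86). At 72 hours sample 1 was highest for Adam12 (8.88) and Dnajb11 (9.35), sample 2 lowest for Ltbp2 (10.95) and Scd1 (10.18), and sample 3 lowest for Des (6.32) and highest for Ptgfr (5.602).

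For 3 genes the change with time differed between the fractions in limma, with a log2 change in non-invading minus invading cells of -0.565 for Gtpbp4, -0.589 for Sarnp and -0.45 for Pdcl (adjusted p = 0.084, 0.084 and 0.094).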

How the results depend on the processing

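The count of 5495 genes, of which 3071 were higher and 2424 lower, fell to 1540, 1060 and 480 with the unnamed median as a covariate, which also left 136 higher and 63 lower genes past 1.5-fold. Without the 72-hour samples 1 and 2 it left 1472 lower genes, 76 of them past 1.5-fold. These 2 fits ended the call of 82 and 53 of 157 named genes, and Acvr2a changed direction with the covariate (-0.014, adjusted p = 0.96). The covariate moves with time in these samples, and the cause was not tested. Leaving out single samples gave 4229 to 5479 genes, 206 to 322 past 1.5-fold higher and 88 to 167 lower, with 167 without the 72-hour sample 4. It ended the call of 31 named genes at least once. The replicate block left 5221 genes and 390 of the 392 past 1.5-fold. Quantile normalization again gave 43.0% higher among the called genes in place of 55.9%, with 212 higher and 162 lower past 1.5-fold.

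The count of genes whose change differed between fractions was 3. It was 11 with arrays centred on the median of all probe sets, 15 with the signal filter, 16 with an intensity trend and 11 without the unnamed probe sets. It was 0 with centring on probe sets with 1 symbol, with those probe sets only, at a threshold of 0.05, with the median of a gene's probe sets, with the replicate block, also when shared by both fractions at each time, and without the 72-hour samples 1 and 2, and between 0 and 16 when single samples were left out. The cause was not tested.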

Other observations

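Lists for stress, lysosomes and innate defence gave further values for the non-invading cells, in which 15.4% of all genes rose and 12.2% fell. Of 27 genes of lysosomes and autophagy 9 (33.3%) rose and 7 (25.9%) fell at 96 hours, and with the unnamed median as a covariate 5 rose and 2 fell. Becn1, which starts the autophagosome, was at 9.51, 9.48, 9.49 and 9.51 and then at 10.02, 10.10, 10.01, 10.06 and 10.17 and rose by 0.57 (adjusted p = 2.7e-06 in limma), while Map1lc3a, a protein of the autophagosome membrane, fell by 0.39. Of 26 targets of ATF4 and amino acid supply 5 (19.2%) rose and 1 (3.85%) fell, with Sars, a seryl-tRNA synthetase, at 0.43 (adjusted p = 3.9e-05). Of 30 genes of glycolysis and hypoxia 5 (16.7%) rose and 3 (10%) fell, near the shares of all genes. Ero1a, an oxidase of the endoplasmic reticulum, was at 0.36 (adjusted p = 0.017) and Egln3, an oxygen-sensing hydroxylase, at -0.58 (adjusted p = 0.0062). Both calls ended with the covariate (adjusted p = 0.49 and 0.38) and without the 72-hour samples 1 and 2 (0.12 and 0.16). Of 16 prostaglandin genes 2 (12.5%) rose and 1 (6.25%) fell, with Ptges3 at 0.45 (adjusted p = 6.7e-05). With the covariate 1 rose and 0 fell in the ATF4, glycolysis and prostaglandin lists alike.

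Of 24 interferon-induced genes 1 (4.17%) rose and 2 (8.33%) fell, below the shares of all genes. Of 12 complement genes 1 (8.33%) rose (Cd59a, an inhibitor of complement lysis, 0.30, adjusted p = 0.039) and 1 fell (Clu, clusterin, -0.36, adjusted p = 0.015). With the covariate 0 genes of either list passed. Gchfr, which regulates the synthesis of tetrahydrobiopterin, was at 8.494, 8.498, 7.87 and 7.95 and then at 7.21, 7.27, 7.13, 7.80 and 7.25. It fell by 0.87 (adjusted p = 0.00058) without overlap, although its samples formed separate levels within both groups.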
